A study of Mus musculus with 36 samples.

Results

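The 36 cell cycle genes described here were taken from a list of symbols and matched to the first symbol in the annotation field of the deposited count table, which held 24940 genes. All 36 were found, each once. By role they are 2 proliferation markers (Mki67, Top2a), 4 mitotic cyclins and their kinase (Ccna2, Ccnb1, Ccnb2, Cdk1), 4 G1 and G1/S cyclins (Ccnd1, Ccnd2, Ccne1, Ccne2) and 8 replication licensing genes (Cdc6, Cdt1, Mcm2, Mcm3, Mcm4, Mcm5, Mcm6, Mcm7). The others are 4 genes of DNA synthesis and nucleotide supply (Pcna, Rrm1, Rrm2, Tyms), 11 spindle, kinetochore and mitotic kinase genes (Birc5, Bub1, Bub1b, Aurka, Aurkb, Plk1, Kif11, Tpx2, Cenpe, Cenpf, Fam83d), 2 partners of the anaphase-promoting complex (Cdc20, Ube2c) and 1 inhibitor of cyclin-dependent kinases (Cdkn1a).

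The libraries came from male mice of an oligodendroglial model of multiple system atrophy (MSA), a movement disorder with alpha-synuclein inclusions in oligodendrocytes, and from controls. In this model, MBP29-hα-syn, the myelin basic protein promoter drives human alpha-synuclein, so the transgene acts in myelin-forming cells. Bulk RNA came from cortex, corpus callosum (a white matter tract) and striatum after 12 weeks on chow with or without PLX5622, an inhibitor of the CSF1 receptor on which microglia depend, given at 1200 mg/kg from 4 weeks of age. The groups on standard chow are called placebo, as in the study's design text. Cortex had 3 libraries in each of the 4 genotype and diet groups. Corpus callosum had 3 control placebo libraries and 2 in each other group, and striatum had 3 MSA placebo libraries and 2 in each other group. Microglia sorted from the forebrain of mice at 16 weeks, with no diet named, had 3 control and 3 MSA libraries. The protocol calls the controls wild type, whereas the 3 control microglia libraries are tagged as heterozygous for MBP29 and the MSA ones as homozygous. The 2 control striatum PLX5622 libraries are tagged as untreated but titled and grouped as PLX5622. Their microglial markers summed to 14.9 and 20.8 CPM (counts scaled to 1000000 counts in genes), against 613 and 630 CPM in control striatum on placebo, and they were used as PLX5622. The labels do not say whether the 3 regions were taken from the same mice, so tests over the 30 bulk libraries may treat pieces of 1 mouse as separate.

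A cell that divides first commits in G1, when D-type cyclins with their kinases inactivate the retinoblastoma protein and E2F factors switch on the genes of replication. Mcm2 to Mcm7 form the helicase that Cdc6 and Cdt1 load on origins, and a later wave of genes, read from promoters that often carry CCAAT boxes and the element TTTGAA, builds the spindle, the kinetochore and the machinery of anaphase. In the adult brain most neurons and oligodendrocytes are out of the cycle, while oligodendrocyte precursors, progenitors lining the ventricle and microglia can divide, and several cycle genes also have roles in cells that do not divide.

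The sequences just before the start sites are shown because these elements can be read in them. RefSeq promoters (build GRCm38.p6, the assembly also called mm10) of 250 bases before to 50 after the start were matched for 29 of the 36 genes. None was matched for Ccna2, Ccnd1, Ccnd2, Ccne2, Mcm4, Aurkb or Tpx2. The motifs searched on both strands, overlaps counted, were the element TTTGAA, the box with the letters CCAAT and an E2F-type site written as TTTCCCGC, TTTGGCGC, TTTCGCGC or TTTGCCGC. The 6 stretches below are the 160 bases before the start, 5′ to 3′ on the gene's strand, with any of these motifs in capitals. Fam83d is shown because it is the gene that changed with diet and genotype, Mki67, Top2a, Cdk1 and Ube2c because they differed between regions, and Mcm5 as a replication gene. They lie at chr2:158767939-158768098 (+) for Fam83d, chr7:135716380-135716539 (-) for Mki67, chr11:99024190-99024349 (-) for Top2a, chr10:69352913-69353072 (-) for Cdk1, chr2:164769769-164769928 (+) for Ube2c, chr8:75109349-75109508 (+) for Mcm5.
Fam83d: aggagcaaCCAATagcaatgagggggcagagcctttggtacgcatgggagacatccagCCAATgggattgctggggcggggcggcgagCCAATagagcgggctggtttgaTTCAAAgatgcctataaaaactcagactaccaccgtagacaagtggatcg
Mki67: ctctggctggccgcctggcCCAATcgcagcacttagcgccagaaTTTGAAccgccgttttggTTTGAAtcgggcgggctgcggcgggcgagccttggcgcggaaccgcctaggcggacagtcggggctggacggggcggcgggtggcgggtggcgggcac
Top2a: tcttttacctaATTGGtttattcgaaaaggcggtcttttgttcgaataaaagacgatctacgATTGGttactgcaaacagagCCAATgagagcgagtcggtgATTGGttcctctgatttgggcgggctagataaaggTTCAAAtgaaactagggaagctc
Cdk1: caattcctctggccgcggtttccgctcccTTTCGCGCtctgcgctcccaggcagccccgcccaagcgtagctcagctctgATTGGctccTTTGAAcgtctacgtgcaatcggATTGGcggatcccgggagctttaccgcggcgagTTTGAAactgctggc
Ube2c: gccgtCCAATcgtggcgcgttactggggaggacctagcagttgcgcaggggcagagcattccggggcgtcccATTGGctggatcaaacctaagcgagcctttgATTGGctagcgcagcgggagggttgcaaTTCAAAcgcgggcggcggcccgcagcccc
Mcm5: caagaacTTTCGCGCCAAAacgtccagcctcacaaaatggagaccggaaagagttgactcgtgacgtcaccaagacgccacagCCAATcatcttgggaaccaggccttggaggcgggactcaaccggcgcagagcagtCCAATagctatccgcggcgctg

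The element TTTGAA, which reads as TTCAAA when it lies on the other strand, stood in the promoters of 12 of the 16 matched proliferation, mitotic, spindle and anaphase genes but in 1 of the 11 matched replication and nucleotide genes. It stood in 17.9% of all 32851 promoters in the RefSeq table. The box CCAAT, which reads as ATTGG when it lies on the other strand, stood in 15 of those 16, in 8 of those 11 and in 37.4% of all promoters. The E2F-type site stood in 1 of the 16, in 5 of the 11 and in 2.26% of all. Cdk1 carries all of the motifs, and the E2F-type letters of Mcm5 read on both strands and overlap. Fam83d has 3 boxes with CCAAT and 1 copy of TTTGAA in the printed stretch, and so does Ube2c. A match is a run of letters and not a measured site, and no match says only that these letters are not in the window.

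The depth, as counts in genes per library in units of 1000000, ranged from 5.95 to 12.1 for sorted microglia, from 5.18 to 11.3 for striatum, from 4.36 to 9.79 for cortex and from 4.59 to 28.6 for callosum. In 6 libraries under 70% of the counted reads lay in genes. The sorted cells carried 65200 to 73100 CPM of 15 microglial marker genes, and the bulk regions carried at most 1180 CPM. Choroid plexus markers summed to 526 to 1620 CPM in the sorted libraries and to 22.1 to 8280 CPM in bulk. Peripheral leukocyte markers summed to 42.3 to 80.6 CPM, and to at most 5.9 CPM in bulk. Mature oligodendrocyte markers summed to 116 to 185 CPM, and to 1530 to 31600 CPM in bulk. In bulk tissue, fewer cells of a type and less RNA per cell cannot be told apart. Many of the mitotic genes sat near the limit of counting: Cdk1 had 0 counts in 7 of 12 cortex libraries, and so did Bub1. The p-values measure the spread between these libraries. Differences are log2 fold changes ± SE from edgeR's quasi-likelihood test, two-sided, with p adjusted by Benjamini-Hochberg over every gene tested in that comparison, and a gene is called when the adjusted p is under 0.05.

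Per transcript length (deposited TPM, mean of the 30 bulk libraries), the order was led by genes that also act outside of division. Cdkn1a, the p21 inhibitor induced by p53 and by stress, stood highest at 28.1 TPM. It was followed by the G1 cyclin Ccnd2 at 19.9 TPM, Pcna, the sliding clamp of replication and repair, at 16.9 TPM, and Ccnd1 at 15.1 TPM. Mcm7 at 7.02 TPM, Ccne1 at 6.17 TPM and Fam83d at 4.88 TPM came next. The mitotic genes sat at the other end, with Mki67 at 0.565 TPM, Top2a at 0.665 TPM and Bub1 at 0.193 TPM. In sorted microglia the order differed: Ccnd1 led with 92.0 TPM, then Pcna with 31.7 TPM, Mcm3 with 21.2 TPM and Cdkn1a with 16.2 TPM. Fam83d was next to last there, at 0.236 TPM, just above Cdc6.

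**Figure D1:**
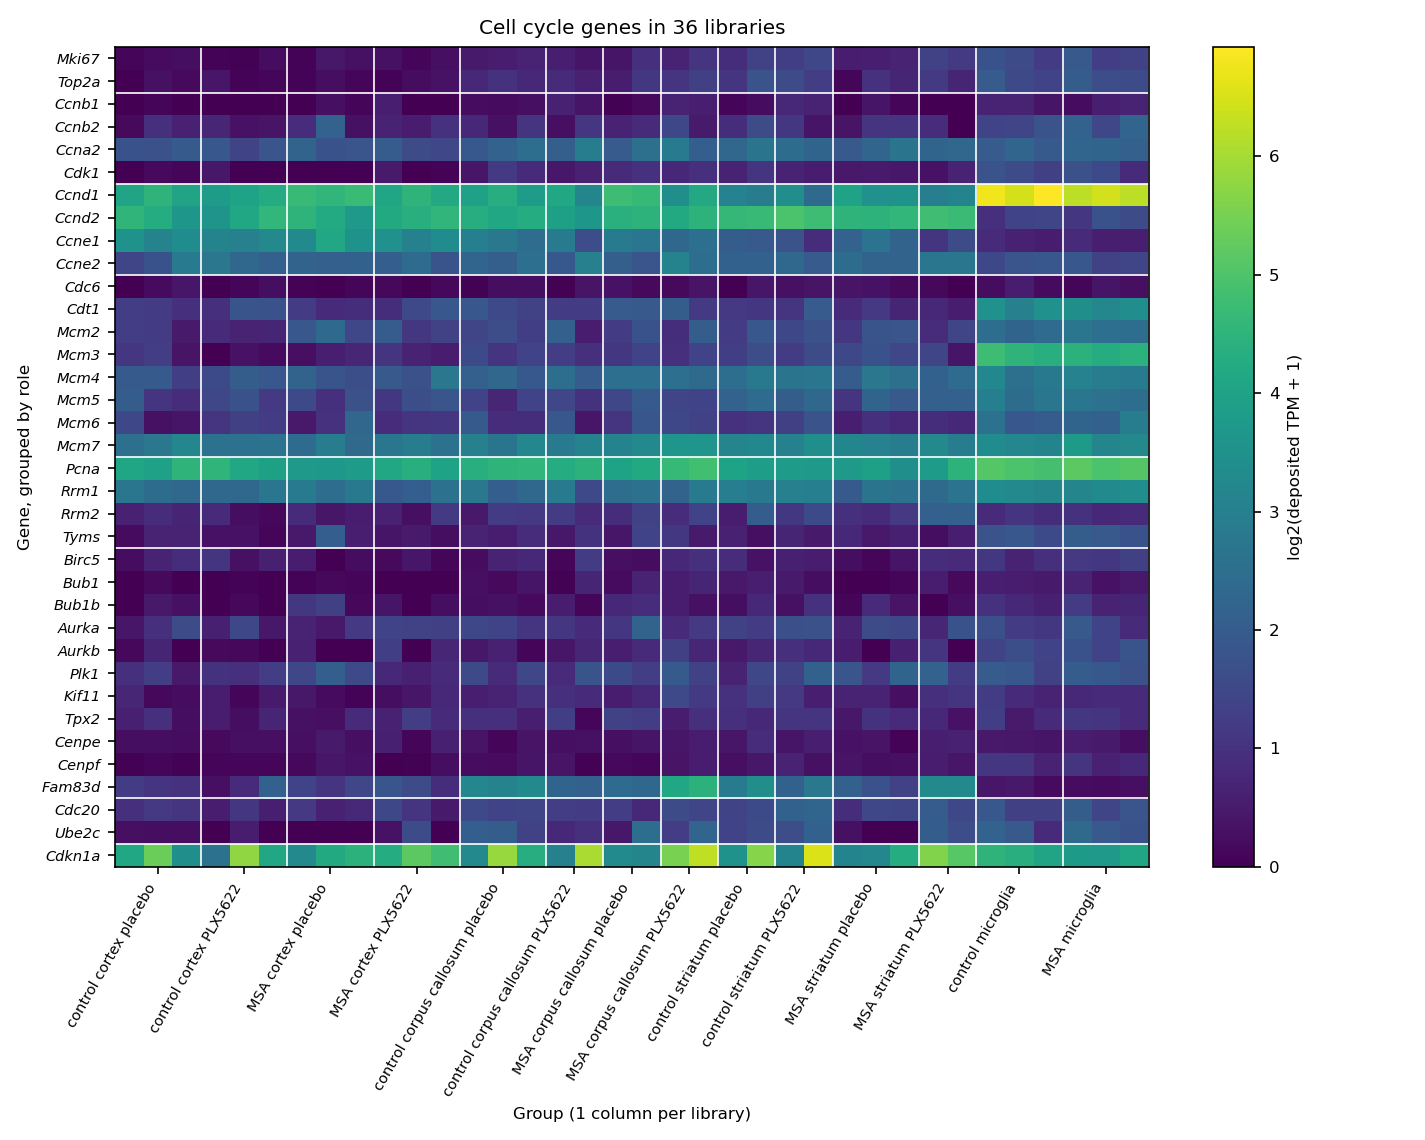
Deposited TPM, as log2(TPM + 1), of the 36 genes (rows, grouped by role) in the 36 libraries (columns, grouped by region, genotype and diet; white lines separate groups). Ccnd1 is brightest in microglia (74.2 to 121 TPM), Ccnd2 is dark there, and Fam83d is brightest in MSA corpus callosum on PLX5622.

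The first comparison asked how the genes differ between brain regions, over all genotype and diet groups. In corpus callosum, 11 of the 34 genes tested were higher than in cortex and 1 was lower, against 30% of all 16080 genes called in either direction. Proliferation and mitotic genes made up most of the 11. The share of these genes called, 12 of 34, is near that background, but the direction was mostly one way: the median log2 change was 0.50, against 0.00 over all genes.

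The proliferation marker Mki67, a surface protein of mitotic chromosomes, ranged from 0.148 to 2.55 CPM in cortex (median 1.1 CPM) and from 2.34 to 8.17 CPM in corpus callosum (median 3.69 CPM). The ranges touched only at their ends, and the log2 change was 1.86 ± 0.33 (adjusted p = 0.00015). Top2a, the topoisomerase that untangles replicated DNA, ranged from 0 to 1.61 CPM in cortex (median 0.453 CPM) and from 1.75 to 5.88 CPM in corpus callosum (median 3.08 CPM). Every callosum library was above every cortex library, with a log2 change of 2.52 ± 0.44 (adjusted p = 0.000132). Fam83d, which brings casein kinase to the mitotic spindle, ranged from 0.459 to 5.09 CPM in cortex (median 2.05 CPM) and from 5.93 to 36.5 CPM in corpus callosum (median 13.1 CPM). It too did not overlap, at 2.16 ± 0.26 (adjusted p = 7.35e-07).

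Cdk1, the kinase that drives mitosis, had a median of 0 CPM in cortex (highest 0.917 CPM) and of 1.68 CPM in corpus callosum (lowest 0.756 CPM, highest 2.73 CPM). Bub1, a checkpoint kinase of the kinetochore, had a median of 0 CPM in cortex (highest 0.388 CPM) and of 1.1 CPM in corpus callosum (from 0.076 to 2.22 CPM). Ube2c, the ubiquitin-conjugating partner of the anaphase-promoting complex, had a median of 0.0647 CPM in cortex (highest 1.43 CPM) and of 1.15 CPM in corpus callosum (from 0.245 to 3.05 CPM). Each of these 3 genes had 1 cortex group with no counts at all, which leaves the contrast averaged over groups without a finite size. A fit with a region effect shared by the 4 groups, added after the data were seen, gave log2 changes of 3.04 ± 0.57 for Cdk1, 3.00 ± 0.71 for Bub1 and 3.08 ± 0.70 for Ube2c, with adjusted p of 0.000125, 0.00165 and 0.00119. That fit called 12 of these cell cycle genes in corpus callosum, where it called 5203 of all 16080 genes. In striatum it called 18 of them and 6474 of all genes.

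Smaller changes followed in other roles. Kif11, the motor that separates spindle poles, had medians of 0.97 CPM in cortex (0.134 to 2.35 CPM) and 3.03 CPM in corpus callosum (1.68 to 6.95 CPM), a log2 change of 1.42 ± 0.37 (adjusted p = 0.00512). The cyclin Ccna2, active in S and G2, had medians of 5.64 CPM (4.09 to 8.63 CPM) and 9.02 CPM (7.13 to 18.0 CPM), at 0.68 ± 0.19 (adjusted p = 0.0104). Among the helicase subunits, Mcm3 had medians of 0.971 CPM (0 to 2.98 CPM) and 3.04 CPM (2.08 to 4.54 CPM), at 1.44 ± 0.35 (adjusted p = 0.00284). Mcm7 (10.5 against 16.3 CPM, 0.44 ± 0.15, adjusted p = 0.0263) and Mcm4 (6.69 against 11.9 CPM, 0.46 ± 0.16, adjusted p = 0.0348), both given as medians, had fitted folds of 1.36 and 1.38. The gene that was lower in corpus callosum was Ccne1, the cyclin of S phase entry, with medians of 12.9 CPM in cortex (10.1 to 22.7 CPM) and 7.62 CPM (3.27 to 10.4 CPM), at -0.996 ± 0.204 (adjusted p = 0.000698).

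Of these 12 calls, Mcm4 was the least firm: its call was lost in 15 of 28 alternative fits, with adjusted p up to 0.102. Ccna2 and Mcm7 each lost theirs in 4 of 28, with adjusted p up to 0.0978 and 0.0943; Bub1 lost its call without the libraries under 70% assigned (0.0574). Ccna2 overlaps Exosc9 on the other strand and Mcm7 holds 3 microRNA genes, and with the use of strand not stated their reads may include those of these neighbours.

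In striatum, 16 of the 34 genes were higher than in cortex and 2 were lower, against 39.3% of all 16080 genes called in either direction, so that 18 of 34 is somewhat above the background. The median log2 change was 0.60, against -0.04 over all genes. Mki67 ranged from 3.25 to 11.9 CPM in striatum (median 8.82 CPM), above every cortex library, with a log2 change of 2.80 ± 0.33 (adjusted p = 1.84e-07). Top2a ranged from 0.325 to 8.43 CPM (median 3.82 CPM), at 2.91 ± 0.44 (adjusted p = 9.49e-06), and 1 MSA placebo library lay within the cortex range. Fam83d ranged from 2.3 to 15.1 CPM (median 8.72 CPM), at 1.80 ± 0.26, and overlapped cortex through MSA placebo libraries.

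The mitotic genes Cdk1, Bub1 and Ube2c were higher in striatum as well, by log2 changes of 2.59 ± 0.58, 2.51 ± 0.74 and 2.54 ± 0.70 in the fit with a shared region effect. In the contrast averaged over groups, Bub1 and Ube2c each lost the call when the one MSA placebo library that held their counts was left out (replicate 3 for Bub1, replicate 1 for Ube2c), since their group then stood at 0 and the adjusted p became 1. Kif11 (median 3.28 CPM, 1.39 ± 0.37), Cenpf (median 2.44 CPM, 1.71 ± 0.43), a kinetochore protein of G2 and mitosis, and Cdc20 (median 2.31 CPM, 1.17 ± 0.28), which activates the anaphase-promoting complex, were higher too. In cortex their medians were 0.97, 0.64 and 1.27 CPM.

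Among replication genes, Mcm3 (median 3.86 CPM, 1.67 ± 0.35), Mcm4 (11.7 CPM, 0.68 ± 0.16), Mcm5 (8.32 CPM, 0.79 ± 0.25) and Mcm7 (15.0 CPM, 0.40 ± 0.15) were higher in striatum than in cortex. Rrm2, the subunit of ribonucleotide reductase made in S phase, had medians of 0.868 CPM in cortex (0.145 to 1.84 CPM) and 1.77 CPM in striatum (0.658 to 5.41 CPM), at 1.55 ± 0.40 (adjusted p = 0.00314). Ccna2 was higher by 0.61 ± 0.20 (adjusted p = 0.0154). The calls of Rrm2 and Ccna2 were lost without control striatum placebo replicate 2 (adjusted p = 0.0601 and 0.0505), and that of Mcm7 in 12 of 27 alternative fits (adjusted p up to 0.0787).

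The G1 and G1/S cyclins did not move together between regions, and Ccne2 was not called in either contrast. Ccnd1 had medians of 49.1 CPM in cortex (40.3 to 67.5 CPM), 44.1 CPM in corpus callosum (24.2 to 72.7 CPM) and 20.8 CPM in striatum (10.4 to 41.3 CPM), and was lower in striatum, at -1.30 ± 0.16 (adjusted p = 4.54e-07). Ccne1 had a median of 3.73 CPM in striatum (1.06 to 6.72 CPM), below every cortex library, at -2.10 ± 0.22 (adjusted p = 3.85e-08). Ccnd2, by contrast, was higher in striatum, with medians of 76.1 CPM in cortex (50.6 to 89.6 CPM) and 97.1 CPM in striatum (80.6 to 121 CPM), at 0.41 ± 0.11 (adjusted p = 0.00339). Both D cyclins overlap a gene on the other strand (9330179D12Rik for Ccnd2, Oraov1 for Ccnd1), whose reads may be counted with theirs.

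Pcna and Cdkn1a, the most abundant members beside the D cyclins, did not pass the test in either region. Pcna had medians of 13.2, 20.8 and 11.4 CPM in cortex, corpus callosum and striatum. Cdkn1a had medians of 25.3, 28.2 and 23.4 CPM, within ranges that ran from 8.71 to 118 CPM over the 30 libraries.

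**Figure D2:**
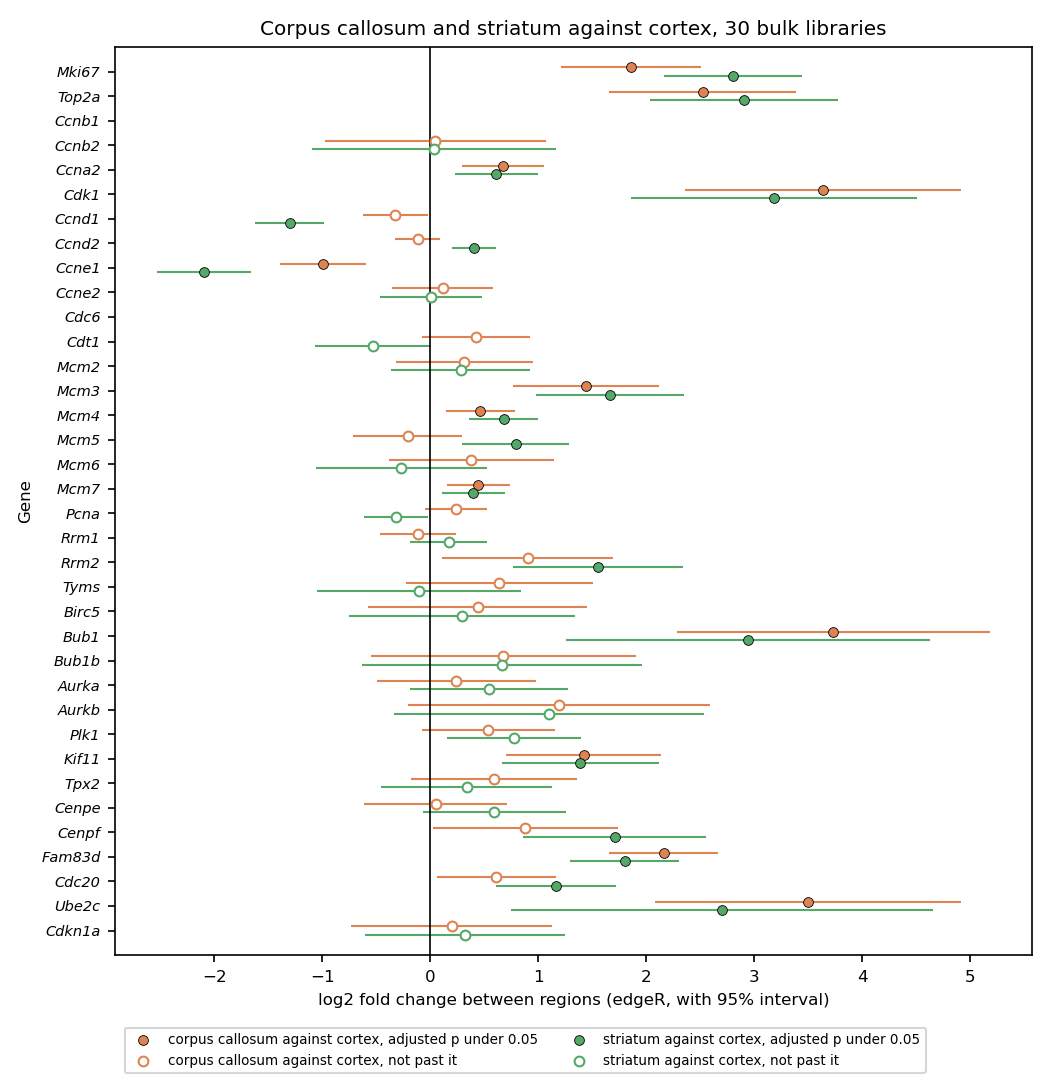
Log2 fold change of each gene in corpus callosum (orange) and striatum (green) against cortex over 30 bulk libraries, with an approximate 95% interval from the SE; filled points passed the test, and genes with no point were not tested. Mki67, Top2a, Cdk1, Bub1 and Ube2c lie well to the right and Ccne1 to the left in both; the sizes of Cdk1, Bub1 and Ube2c in this fit rest on a cortex group with no counts.

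Markers of several cell types differed between the regions in the same libraries. The 10 mature oligodendrocyte markers summed to 1530 to 4960 CPM in cortex, 15300 to 31600 CPM in corpus callosum and 6100 to 14300 CPM in striatum. The 10 oligodendrocyte precursor markers summed to 353 to 741, 1160 to 2010 and 706 to 980 CPM, and 10 ependymal markers to 15.6 to 32.6, 43.5 to 133 and 36.7 to 96.8 CPM. Within the precursor list, Bcas1 (27.9 to 152 CPM in cortex, 383 to 802 CPM in callosum), Olig2 and Vcan separated callosum from cortex. The callosum and cortex ranges of Pdgfra (31.9 to 69.0 and 37.9 to 67.1 CPM), Cspg4, C1ql1, Gpr17, Neu4, Lhfpl3 and Olig1 overlapped. The 15 progenitor and neuroblast markers summed to 487 to 638 CPM in cortex, 440 to 605 CPM in corpus callosum and 356 to 466 CPM in striatum, so as a sum they were not higher where Mki67 was higher. Much of that sum in cortex was Stmn2, which mature neurons also make (199 to 372 CPM in cortex, 42.3 to 115 CPM in striatum). Some members went the other way. Sp9 had 2.77 to 13.7 CPM in cortex and 50.4 to 87.2 CPM in striatum. Cd24a had 1.53 to 7.72 CPM in cortex, 9.12 to 26.8 CPM in corpus callosum and 5.76 to 19.3 CPM in striatum. Igfbpl1 had 0 to 2.69, 2.05 to 16.1 and 1.14 to 11.4 CPM in the same order. Apart from Stmn2, Sp9 and Cd24a, each member had a cortex range that overlapped those of both other regions. What part these cells have in the differences between regions was not tested.

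Among 117 other cell cycle genes in 5 lists, 109 were tested between regions. In corpus callosum 29 were higher and 5 lower, a share near the 30% of all genes. By smallest p these were led by Anln (2.95 ± 0.21), the cytokinesis scaffold anillin, which also organises septins in myelin, and by the condensin subunits Smc4 (1.57 ± 0.21) and Smc2 (0.96 ± 0.16) and the retinoblastoma gene Rb1 (0.47 ± 0.10). In striatum 21 were higher and 9 lower, a share below the 39.3% of all genes, led by smallest p by Anln (1.98 ± 0.21), E2f1 (-1.01 ± 0.16), the centrosome kinase Nek2 (1.99 ± 0.35) and Troap (3.63 ± 0.65), a spindle protein. Their median log2 changes were 0.30 and 0.17.

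The second set of comparisons asked what the diet and the transgene did within each region. In corpus callosum Fam83d was the only one of the 35 genes tested that was called. The genes were chosen with earlier results of these data known, so the presence of Fam83d among them may not be independent of its change. Fam83d stood at 14.4, 13.1 and 15.4 CPM in the 3 control placebo libraries and at 5.93 and 6.07 CPM in the 2 control PLX5622 libraries. It stood at 7.27 and 6.31 CPM in MSA on placebo and at 29.3 and 36.5 CPM in MSA on PLX5622. The 4 groups thus fell into 3 levels without overlap: both MSA PLX5622 libraries highest, the control placebo libraries between, and the control PLX5622 and MSA placebo libraries lowest.

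In the MSA mice Fam83d rose with PLX5622 by a log2 change of 2.15 ± 0.29, or 4.44-fold (adjusted p = 0.0352), where 0.0693% of the 15881 genes tested were called. Fam83d was the 1 gene of those called that was higher. On PLX5622, MSA exceeded control by 2.37 ± 0.30, or 5.18-fold (adjusted p = 0.00952), with 0.195% of all genes called. The genotype by diet interaction, which tests whether the diet effect differs between genotypes, was 3.42 ± 0.40 (adjusted p = 0.00513), with 0.264% of all genes called. In control mice the log2 change on PLX5622 was -1.27 ± 0.27, which did not pass the test (adjusted p = 0.134); there 0 of 35 genes were called, with 0 higher and 2 lower at an unadjusted p under 0.05 (3.91% of all genes had such a p), against 0.46% of all genes called. On placebo, MSA against control gave -1.05 ± 0.27 (adjusted p = 0.241), with 0 of 35 called, 1 higher and 1 lower at an unadjusted p under 0.05 (8.53% of all genes), and 0.321% of all genes called. DESeq2 called Fam83d in both of the last comparisons.

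With 2 libraries a group these calls depend on single libraries. The diet call in MSA was lost without MSA placebo replicate 1 (2.26, adjusted p = 0.288) or replicate 2 (2.08, 0.183) and without MSA PLX5622 replicate 1 (2.35, 0.428) or replicate 3 (1.95, 0.276), although its size stayed. The genotype call on PLX5622 was lost without MSA PLX5622 replicate 3 (2.17, adjusted p = 0.101) and when the 2 groups were fitted alone (0.54). The interaction kept its call without each of the 9 libraries in turn (3.21 to 3.62, adjusted p up to 0.0459). With the replicate number as a block, none of these callosum calls held (adjusted p = 0.154 for the interaction).

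In striatum Fam83d was not called, and MSA placebo was the group with the lowest mean. Control placebo libraries had 10.1 and 15.0 CPM, control PLX5622 libraries 5.43 and 8.72 CPM, MSA placebo libraries 5.69, 3.52 and 2.30 CPM, and MSA PLX5622 libraries 15.1 and 14.2 CPM, so that the MSA PLX5622 and control placebo libraries overlapped. Diet in MSA gave 1.96 ± 0.40 (adjusted p = 0.108), genotype on placebo -1.71 ± 0.40 (0.518) and the interaction 2.76 ± 0.59 (0.315). In cortex Fam83d ranged from 0.459 to 5.09 CPM, the groups overlapped, and the interaction was 0.01 ± 1.10. Sorted microglia held 0.226 to 0.611 CPM, on 2 to 5 counts a library.

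Over the 3 regions, the mean diet effect on Fam83d in MSA was 1.48 ± 0.30 (adjusted p = 0.00965), with 1 of 34 genes called against 2.31% of all 16080 genes. The mean interaction was 2.05 ± 0.43 (adjusted p = 0.0218), again 1 of 34, against 0.361% of all genes. The latter was lost without MSA corpus callosum placebo replicate 1 (adjusted p = 0.0503) or 2 (0.0661), MSA corpus callosum PLX5622 replicate 3 (0.065), control striatum placebo replicate 2 (0.0699) or control striatum PLX5622 replicate 1 (0.0703). The mean genotype effect on PLX5622 was 1.22 ± 0.31 (adjusted p = 0.0583), with 0 of 34 called, 1 higher and 0 lower at an unadjusted p under 0.05 (8.89% of all genes), against 1% of all genes called. DESeq2 called Fam83d here, and edgeR called it without control cortex PLX5622 replicate 3 (1.66, adjusted p = 0.000728) or MSA cortex PLX5622 replicate 3 (1.35, 0.0206).

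**Figure D3:**
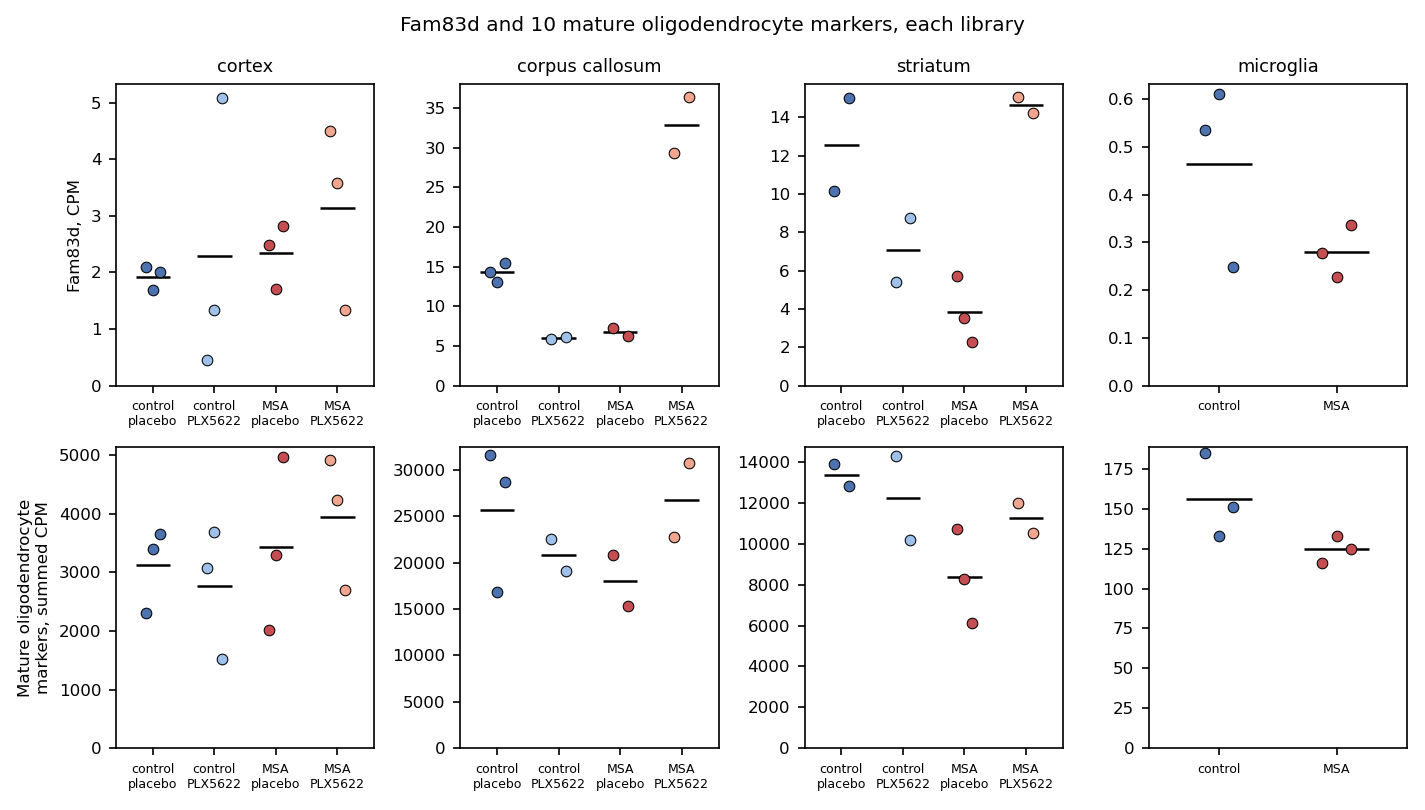
Fam83d (top, CPM) and the summed CPM of 10 mature oligodendrocyte markers (bottom) in each library (points; horizontal lines are group means) of the 4 tissues, on linear axes that differ between panels. Fam83d is highest in MSA corpus callosum on PLX5622 (29.3 and 36.5 CPM) and lies under 1 CPM in microglia. In callosum the marker sums of MSA PLX5622 (22700 and 30700 CPM) lie above those of MSA placebo and of control PLX5622. Those of control placebo overlap every other callosum group.

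Mature oligodendrocyte markers moved in the same direction as Fam83d between several groups, and by less. In corpus callosum their sum was 16800 to 31600 CPM in control placebo, 19100 and 22500 CPM in control PLX5622, 15300 and 20800 CPM in MSA placebo, and 22700 and 30700 CPM in MSA PLX5622. In striatum it was 12800 and 13900, 10200 and 14300, 6100 to 10700, and 10500 and 12000 CPM in the same order of groups. The precursor markers summed to 1160 to 1580 CPM in the other callosum groups and to 1420 and 2010 CPM in MSA PLX5622. Other lists moved across the same callosum groups. Choroid plexus markers summed to 255 to 350 CPM in control placebo, 1410 and 1510 CPM in control PLX5622, 3220 and 8280 CPM in MSA placebo and 416 and 468 CPM in MSA PLX5622, in the direction opposite to Fam83d with diet in both genotypes. Ependymal markers summed to 43.5 to 72.2 CPM in control and 107 to 133 CPM in MSA, and cortical neuron markers had means of 4030, 3170, 5360 and 2920 CPM in the order of groups above. The part of these cell types in the change of Fam83d was not tested.

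The other spindle and mitotic genes gave no call with diet or genotype. Summed over the 18 proliferation, mitotic, spindle and anaphase genes without Fam83d, corpus callosum libraries held 36.3 to 45.7 CPM in control placebo, 34.1 and 46.3 CPM in control PLX5622, 33.2 and 51.2 CPM in MSA placebo, and 56.0 and 59.6 CPM in MSA PLX5622. The last group was thus the highest in callosum, as for Fam83d, by a smaller ratio. The sum includes Ccna2, whose reads may include those of Exosc9 (mean 10.9 CPM in callosum). The mitotic cyclins and Cdk1 held 21.1 and 11.8 CPM of it in MSA PLX5622, and 9.08 to 21.2 CPM in the other callosum libraries. In MSA callosum on PLX5622 against control callosum on PLX5622, 33 of 35 genes had a positive change, with a median of 0.36 against -0.03 over all genes, and 12 of 35 had groups that did not overlap and were higher in MSA, as did 17.4% of all genes tested. None of the 35 was lower without overlap, against 7.88% of all genes. Mcm7, the helicase subunit of highest level in bulk tissue, had 23.9 and 23.4 CPM in MSA PLX5622 and 11.2 to 17.6 CPM in the other callosum libraries. Only Fam83d passed the test there.

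In striatum, 0 of the 31 genes tested were called for any of the 5 comparisons of diet and genotype. For diet in MSA, 6 genes were higher and 1 lower at an unadjusted p under 0.05, where 13.8% of all genes had such a p and 0.074% were called. Mki67 stood at 3.25, 3.36 and 3.78 CPM in MSA placebo and at 11.6 and 8.82 CPM in MSA PLX5622, beside 6.06 and 10.5 CPM in control placebo and 10.0 and 11.9 CPM in control PLX5622. The 3 MSA placebo libraries lay below all the others, with a diet effect in MSA of 1.57 ± 0.35 (adjusted p = 0.138). Ube2c had 1 count in the 3 MSA placebo libraries together and 21 counts in the 2 MSA PLX5622 libraries, a ratio of pooled CPM of 33.1 with an exact 95% interval of 5.33 to 1370 that covers counting error only. Mki67, Fam83d and Ube2c were called for the diet in MSA without MSA striatum placebo replicate 1, where the number of all genes called went from 11 to 824 and Ube2c had no count left in its placebo group, and with DESeq2, which called 264 of all genes.

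The sum of the 18 genes was lowest in the same group in striatum. It was 41.4 and 62.1 CPM in control placebo, 55.3 and 59.8 CPM in control PLX5622, 26.3 to 36.5 CPM in MSA placebo, and 43.1 and 57.8 CPM in MSA PLX5622, so the MSA placebo libraries lay below all others. For genotype on placebo, 23 of 31 genes had a negative change (median -0.32, against 0.01 over all genes) and 0 were called by edgeR or DESeq2. Without overlap between the groups, 12 of 31 were lower and 2 higher in MSA, against 9.78% and 8.12% of all genes tested. At an unadjusted p under 0.05, 1 gene was higher and 7 were lower, where 3.75% of all genes had such a p and 0.0336% were called. The other striatal comparisons had 0 and 0 (diet in control), 2 and 2 (genotype on PLX5622) and 4 and 0 genes (interaction) higher and lower at an unadjusted p under 0.05, where 2.25%, 11.0% and 5.00% of all genes had such a p. In them 0.336%, 0.222% and 0.0874% of all genes were called. DESeq2 called 0 genes in the first 2 of these and Fam83d in the interaction. Mature oligodendrocyte markers were lowest in the MSA placebo striatum too, as given above, and their part was not tested.

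In cortex, 25 of the 36 genes had enough counts to be tested, and 0 were called in any of the 5 comparisons, by edgeR or by DESeq2. The shares of all 14600 genes called were 0.486% for diet in control, 0.0548% for diet in MSA, 0% for genotype on placebo, 0.151% for genotype on PLX5622 and 0.0959% for the interaction. At an unadjusted p under 0.05, 0, 0, 2, 2 and 1 genes were higher and 1, 2, 0, 0 and 1 lower, in that order, where 2.86%, 4.42%, 3.52%, 2.82% and 3.77% of all genes had such a p. The sum of the 18 mitotic genes was 14.4 to 29.3 CPM over the 12 cortex libraries, and the 4 groups overlapped. Mki67 rested on 1 to 15 counts a library in cortex.

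Averaged over the 3 regions, 0 of 34 genes were called for diet in control, with 0 higher and 2 lower at an unadjusted p under 0.05 (5.51% of all genes), against 1.38% of all genes called. For genotype on placebo 0 were called, with 2 higher and 6 lower at such a p (11.3% of all genes), against 0.504% of all genes called. DESeq2 also called 0 in both. For diet in MSA, Ccnd1 (-0.63 ± 0.18, adjusted p = 0.0741), Pcna (0.58 ± 0.18, 0.0843) and Cdkn1a (1.87 ± 0.58, 0.0915) lay just outside the threshold. All 3 were called by DESeq2. In callosum Ccnd1 was 72.7 and 64.6 CPM in MSA placebo, above the 7 other libraries (24.2 to 55.1 CPM), and 29.1 and 50.2 CPM in MSA PLX5622.

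Cdkn1a varied widely between libraries of a group. In corpus callosum it was 12.6, 82.7 and 28.2 CPM in control placebo, 9.57 and 98.7 CPM in control PLX5622, 12.5 and 10.7 CPM in MSA placebo and 67.2 and 111 CPM in MSA PLX5622. The 2 MSA groups did not overlap, but the diet effect in MSA, 2.83 ± 0.99, did not pass the test (adjusted p = 0.582). In striatum it was 14.5 and 64.9, 10.1 and 118, 10.7, 10.2 and 23.4, and 68.2 and 45.6 CPM in the same order of groups, with a diet effect in MSA of 1.95 ± 1.04 (adjusted p = 0.436). In cortex the control libraries ran from 8.71 to 75.9 CPM, the MSA placebo ones from 11.1 to 28.3 CPM and the MSA PLX5622 ones from 27.3 to 52.4 CPM.

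**Figure D4:**
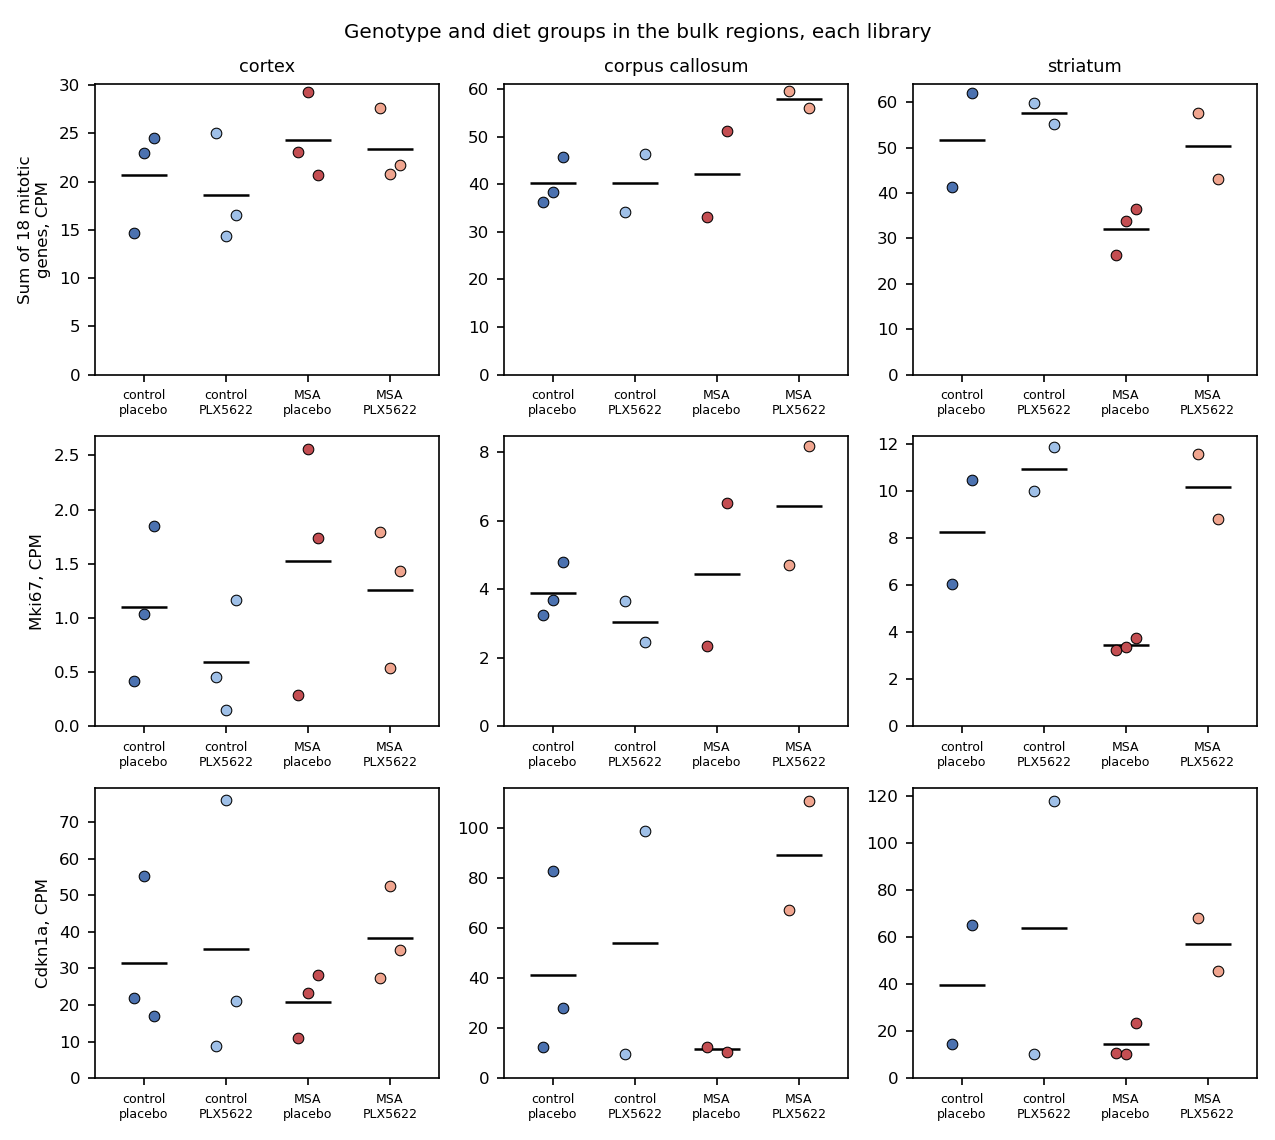
Summed CPM of 18 mitotic genes without Fam83d (top), Mki67 (middle) and Cdkn1a (bottom) in each bulk library (points; horizontal lines are group means) by region, genotype and diet. MSA striatum on placebo is the lowest striatal group for the sum (26.3 to 36.5 CPM) and Mki67, and Cdkn1a is spread widely within the control groups.

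The third comparison asked whether microglia of MSA mice differ from those of controls. Of the 32 genes tested, 0 were called by edgeR, with 0 higher and 2 lower at an unadjusted p under 0.05 (10.7% of all genes), against 0.61% of all 11810 genes called. Ccnb1, Ccne1, Cdc6 and Fam83d had too few counts. Ccnd1 came nearest, at 288, 235 and 318 CPM in the controls and 197, 228 and 199 CPM in MSA. The groups did not overlap, and the log2 change was -0.47 ± 0.11 (adjusted p = 0.142). DESeq2 called it, and edgeR did without control microglia replicate 2. Cdkn1a was 29.2, 25.6 and 20.5 CPM in controls and 17.0, 16.2 and 21.5 CPM in MSA, which overlapped (-0.50 ± 0.15, adjusted p = 0.243).

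The division markers showed no such difference. Mki67 was 16.6, 14.2 and 9.25 CPM in control and 19.8, 9.96 and 11.1 CPM in MSA microglia (0.01 ± 0.33, adjusted p = 0.997), and Top2a was 10.9, 6.73 and 5.95 against 11.4, 7.70 and 7.23 CPM (0.14 ± 0.27, adjusted p = 0.906). The spread within each group was larger than the distance between them. The 18-gene sum was 51.9 to 84.1 CPM in control and 63.3 to 91.8 CPM in MSA microglia.

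Sorted microglia and bulk tissue can be set side by side only as levels, since the 2 kinds of library were made from different material. In 5 of the 34 genes tested in either material every microglia library lay above every bulk library, against 20.4% of all genes, and in 1 every microglia library lay below, against 29.4%, so such separation was less frequent here than over all genes. Mcm3 was 39.1 to 56.4 CPM in microglia and 0 to 4.64 CPM in bulk, a ratio of means of 18.2. Ccnd1 was 197 to 318 CPM against 10.4 to 72.7 CPM (ratio 5.83), and the licensing factor Cdt1 was 10.8 to 15.9 CPM against 0.678 to 5.20 CPM (ratio 5.65). Mcm5 (ratio 2.41) and Rrm1 (ratio 1.73) followed. The gene that lay below was Ccnd2, at 3.88 to 9.51 CPM against 50.6 to 121 CPM. Per length, microglia thus held 92.0 TPM of Ccnd1 and 1.64 TPM of Ccnd2, and bulk tissue 15.1 and 19.9 TPM. In the other 30 of the 36 genes the ranges overlapped.

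**Figure D5:**
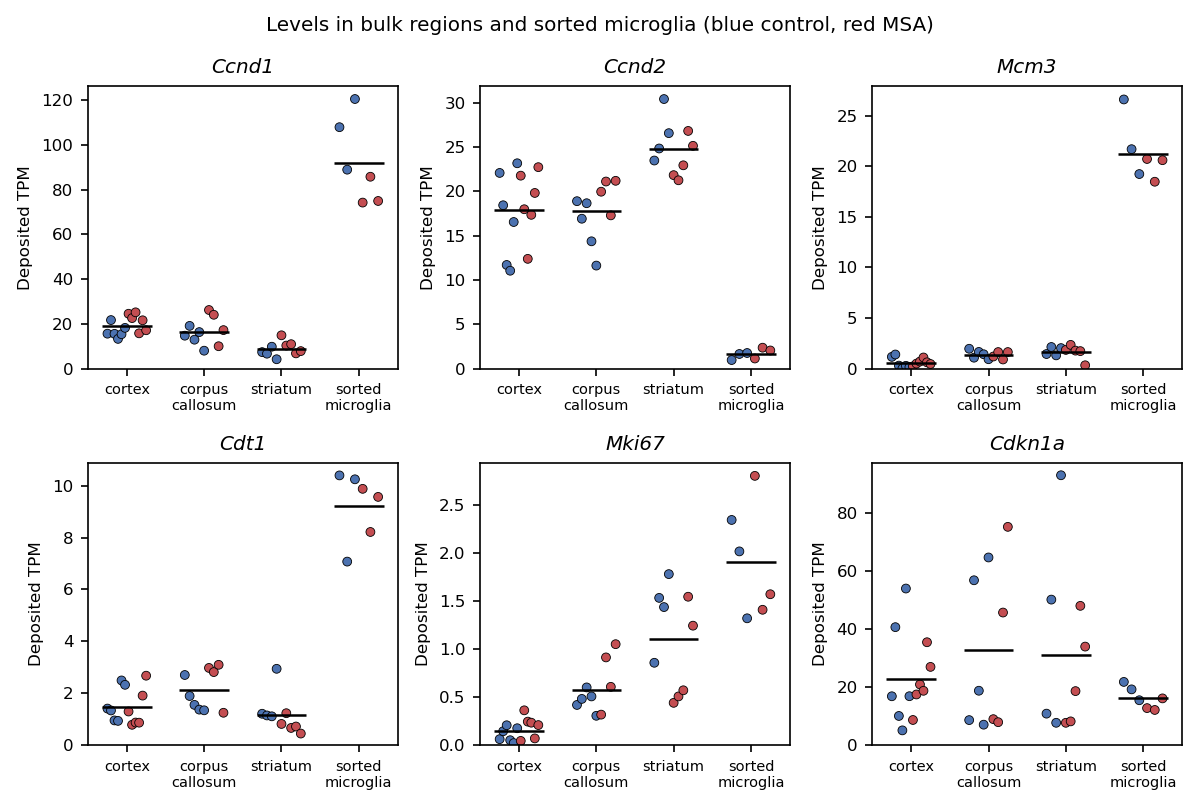
Deposited TPM of 6 genes in each library of cortex, corpus callosum, striatum and sorted microglia (points, blue for control and red for MSA; horizontal lines are means over the tissue), on linear axes from 0. Ccnd1, Mcm3 and Cdt1 stand higher in every microglia library than in any bulk library, Ccnd2 stands lower, and Cdkn1a is spread more widely in bulk than in microglia.

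The 15 microglial markers of bulk control callosum summed to 665 to 749 CPM on placebo and to 21.7 and 40.4 CPM on PLX5622. In MSA callosum they stood at 1000 and 1180 CPM on placebo and 261 and 333 CPM on PLX5622. In sorted microglia these markers summed to 65200 to 73100 CPM. What part of the bulk counts of the cell cycle genes came from microglia was not tested. The 5 genes for which every microglia library lay above every bulk library did not pass the test for diet in control mice in any region. Mcm3 had log2 changes of -2.61 ± 0.88 in cortex (adjusted p = 0.853), -0.47 ± 0.53 in corpus callosum and -0.10 ± 0.64 in striatum, and Ccnd1 had -0.15 ± 0.21, -0.41 ± 0.34 and 0.01 ± 0.37. In control cortex every PLX5622 library lay below every placebo library for Mcm3, at low levels (0 to 2.98 CPM over all cortex libraries). Its diet groups overlapped in control callosum and striatum, and those of Ccnd1 overlapped in every region.

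Among the other cell cycle genes, few were called with diet or genotype. Anln was lower in MSA on placebo in corpus callosum (-2.64 ± 0.31, adjusted p = 0.00571) and striatum (-3.29 ± 0.32, adjusted p = 0.00489) and on PLX5622 in both (-2.12 ± 0.31, adjusted p = 0.0282, and -2.81 ± 0.37, adjusted p = 0.00615), as 1 of 106 and 1 of 99 tested. Of all genes, 0.321% on placebo and 0.195% on PLX5622 were called in corpus callosum, and 0.0336% and 0.222% in striatum. For Fam83d the same contrasts in corpus callosum were -1.05 and 2.37. Whether the genes differ in this was not tested. Averaged over regions, Ccng1, a cyclin induced by p53, was higher with the diet in MSA (0.92 ± 0.24, adjusted p = 0.0435), and Incenp, of the chromosomal passenger complex, was lower in MSA on PLX5622 (-0.89 ± 0.22, adjusted p = 0.0469). In cortex 0 of 80 and in microglia 0 of 96 were called by edgeR, with at most 1 higher and 5 lower in any of these comparisons at an unadjusted p under 0.05. Of all genes, 2.82% to 4.42% in the cortex comparisons and 10.7% in microglia had such a p. The shares of all genes called were 0% to 0.486% and 0.61%.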

How the data were processed

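Polyadenylated RNA was sequenced from 30 bulk tissue libraries and 6 libraries of sorted microglia. The authors deposited raw read counts per gene and, per the file headers, TPM of the same genes, each with 1 RefSeq transcript a gene. The TPM of a library sum to 453500 to 559000. STAR, HOMER, DESeq2 and mm10 are named in the submitters' processing notes without role or version, and how reads were counted, by strand or not, is not stated in those notes or headers. CPM are counts scaled to a library total of 1000000 counts in genes.

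Counts were tested with edgeR 4.0.16 (TMM, robust quasi-likelihood, two-sided, filterByExpr with a minimum count of 10, R 4.3.3), with p-values adjusted by Benjamini-Hochberg over all genes tested and called under 0.05. Each region was fitted with its 4 groups, the microglia alone, and the 30 bulk libraries together with 12 groups for contrasts between regions and means over the 3 regions. The SE is the log2 change divided by the square root of F. The test was checked on simulated counts. Python 3.11.15 did the rest.

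The genes and lists were chosen with earlier results of these data known. Genes are given with values where called in any comparison, where of the highest TPM of their role, and for Mki67, Top2a, Fam83d, Ccnd1 and Cdkn1a. Other cell cycle genes are named only where called, at most 4 a comparison. Alternatives were other size factors, DESeq2 1.42.0, no count filter, a replicate block, leaving out each library, the compared groups alone, leaving out libraries under 70% assigned or control striatum PLX5622, and the assigned share as a covariate. The shared region effect was added after the data were seen.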

Additional observations from a re-analysis of the deposited data

Results flagged for a closer look

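In corpus callosum and as the mean of the 3 regions, the diet effect on Fam83d differed between control and MSA mice. This rests on the test of that difference itself (the genotype by diet interaction in edgeR). In corpus callosum the interaction was 3.42 on the log2 scale, with the 2 control PLX5622 libraries below the 3 on placebo and the 2 MSA PLX5622 libraries above the 2 on placebo. As the mean of the 3 regions it was 2.05, and edgeR did not call it in cortex or striatum alone. The callosum call was lost with the replicate block (adjusted p = 0.154), and the call of the mean in 6 of 36 alternative fits. Groups had 2 or 3 libraries, so no library was tested as an outlier of its group.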

How the results depend on the processing

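The counts of called cell cycle genes stayed within 1.5 times in 342 alternatives and moved by more in 42, and no gene named turned its direction. In corpus callosum, diet in control gave 1 call with DESeq2 and 1 with the assigned share as covariate, and genotype on placebo 1 with DESeq2. Diet in MSA there gave 0 with the replicate block, 2 with the 2 groups alone and 0 without any of its 4 libraries. Genotype on PLX5622 gave 0 with the replicate block, 0 with the 2 groups alone and 0 to 1 with a library left out, and the interaction 0 with the replicate block (Fam83d 3.16, adjusted p = 0.154), where 0 of all 15881 genes were called. In striatum, diet in MSA gave 3 with DESeq2, 1 without the count filter, 3 with the replicate block (where 1349 of all 14872 genes were called) and 0 to 3 with a library left out. The striatal interaction gave 1 with DESeq2 and 1 without the filter. Microglia gave 1 with DESeq2, 2 without the filter and 0 to 1 with a library left out. Over the 3 regions, diet in MSA gave 5 with DESeq2 and 2 in each of 3 settings: no filter, no libraries under 70% assigned, and no control striatum PLX5622. It gave 1 to 2 with a library left out. Genotype on PLX5622 gave 1 each with DESeq2, no filter, the replicate block and the covariate, and 0 to 1 with a library left out. The interaction gave 0 without libraries under 70% assigned and 0 to 1 with a library left out. Except where given, the number of all genes called in the same fit does not stand beside these counts. They therefore do not say whether cell cycle genes were called more often than others. The cause of the moved counts was not tested.

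The replicate numbers were not taken to pair the libraries, since the labels do not say that they do. Correlations of same-numbered deviations ran from -0.616 to 0.514 within regions. Between regions they ran from -0.364 to 0.44, with 12 of 25 over 0.1. These values cannot settle the question, since in a group of 2 libraries the deviations from the group mean mirror each other. Leaving out a library gave 10 to 13 calls in callosum and 15 to 19 in striatum against cortex. Low counts limit the mitotic genes in cortex.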

Other observations

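Cdkn1a showed a pattern in bulk tissue that was noticed after its values were seen and is given without a test. The 6 control libraries numbered 2, from all 3 regions and both diets, held 55.3 to 117.8 CPM (median 79.3 CPM), and the 9 other control bulk libraries held 8.71 to 28.2 CPM (median 14.5 CPM). In MSA mice the libraries numbered 2 did not stand apart, with 10.2 to 68.2 CPM against 10.7 to 110.8 CPM in the others. There the 7 PLX5622 libraries held 27.3 to 110.8 CPM (median 52.4 CPM) and the 8 placebo libraries 10.2 to 28.3 CPM (median 11.8 CPM). The labels do not say whether libraries with the same number from different regions come from 1 mouse.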
